A study of Mus musculus with 5 samples.

Results

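Type I interferon-stimulated genes, a set of 45 named genes, were followed in mouse tumour-associated macrophages with and without the adaptor MyD88. A listed gene counted as measured when the platform annotation paired its symbol with a probe set, which held for 42 of the 45. Ifi44, Ifi47 and Ddx60 had no such pairing and are not reported. The 42 genes stand among 19505 measured in all. Each is represented by 1 value per array, from the probe set with the highest mean where a gene had several.

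RNA came from 5 samples, 3 labelled MyD88-ko and 2 labelled WT, all on the C57BL/6 background, each hybridised to its own whole-transcript expression array. Every animal, aged 6 to 12 weeks and female or male, had received B16-F10 melanoma cells under the skin, so a growing tumour is common to both groups. On day 15 cells were sorted that stained for CD11b, CD45 and the product of Adgre1, a macrophage surface protein, but not for CD3, NK1.1 or B220. The labels call them TAMs, while the growth protocol speaks of spleen cells as the material sorted. The allele behind the MyD88-ko label is not described, and nothing says that the arrays of a group are separate animals, so the tests below measure the spread between these samples, which may be technical.

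Interferons alpha and beta signal through a shared receptor and the kinases Jak1 and Tyk2. The kinases activate a complex that contains Stat2 and Irf9 and binds interferon-stimulated response elements in the promoters of many genes. The products block virus replication at many steps, and in macrophages they also set antigen presentation, chemokine production and the sensitivity of the cell to further nucleic acid. MyD88 lies on a separate route: it is the adaptor through which receptors for interleukin-1 and nearly all Toll-like receptors signal. Tlr7 and Tlr9, Toll-like receptors of the endosome, use it to induce type I interferon.

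Values are log2 units, in which a difference of 1 is a doubling. A background limit was taken from the negative-control probe sets of each array, at their 95th percentile, and lay between 6.55 and 6.96. It was 6.55, 6.59 and 6.74 on MyD88-ko replicates 1 to 3 and 6.91 and 6.96 on WT replicates 1 and 2. A gene thus had to read higher on a WT array than on a MyD88-ko array to exceed it. It is a strict limit, and a gene under it is not shown to be silent. Of the 42 genes, 6 exceeded it on all 5 arrays, 20 on some arrays and 16 on none, so most of the set sat near or under the limit. Where a gene was under it on every array of both groups its levels are given without a fold. Where it was under it throughout 1 group, values of that group were raised to the limit. The fold is then given as "at least", or left out where it is under 1. Values of the other group were used as read, so the fold is no strict lower bound where an array of that group was also under the limit. Myd88 itself, the gene named in the labels, read 7.73, 7.01 and 7.58 in MyD88-ko and 8.46 and 8.40 in WT. It was 1.99-fold lower without overlap but above the limit on every array, and did not pass over all genes (limma, adjusted p = 0.179). Whether its probe set covers the deleted part is not known. Of 10 measured macrophage markers 9, among them Lyz2, Csf1r and Adgre1, were above the limit on all arrays. The measured markers of T cells (3), B cells (3) and NK cells (4) were under it throughout. Tyrp1 and Dct, pigment genes of melanoma cells, were above it on all arrays.

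Promoters were searched for the element that the interferon-activated complex binds. RefSeq promoters of build GRCm38.p6, running from 250 bases before to 50 bases after a transcription start, were found for 34 of the 45 listed genes. They were searched on both strands for the core of the response element, GAAANNGAAA (TTTCNNTTTC on the other strand), with overlapping matches counted. At least 1 match was present in 15 of the 34 genes (44.1%), against 1079 of 27025 genes in the promoter table (3.99%); the other 19 listed genes had none in this window. Those of 5 genes are printed 5′ to 3′ in the direction of transcription, with the matched letters in capitals: Ifit1 and Isg15 as classical members, Trim30d with the most negative difference between genotypes, Rsad2 whose spread lay within MyD88-ko, and Lgals3bp, which was higher in MyD88-ko.
Ifit1: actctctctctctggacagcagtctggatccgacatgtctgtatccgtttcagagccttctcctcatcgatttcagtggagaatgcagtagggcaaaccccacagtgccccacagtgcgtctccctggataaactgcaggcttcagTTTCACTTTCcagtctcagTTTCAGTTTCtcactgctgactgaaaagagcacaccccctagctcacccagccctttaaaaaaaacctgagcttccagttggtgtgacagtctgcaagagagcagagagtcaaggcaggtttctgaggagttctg
Isg15: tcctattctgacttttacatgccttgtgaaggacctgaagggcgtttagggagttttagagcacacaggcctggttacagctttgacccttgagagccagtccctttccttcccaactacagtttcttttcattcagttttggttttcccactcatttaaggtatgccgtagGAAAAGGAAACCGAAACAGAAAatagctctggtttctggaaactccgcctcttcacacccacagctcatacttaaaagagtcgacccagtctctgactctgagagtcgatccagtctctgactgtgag
Trim30d: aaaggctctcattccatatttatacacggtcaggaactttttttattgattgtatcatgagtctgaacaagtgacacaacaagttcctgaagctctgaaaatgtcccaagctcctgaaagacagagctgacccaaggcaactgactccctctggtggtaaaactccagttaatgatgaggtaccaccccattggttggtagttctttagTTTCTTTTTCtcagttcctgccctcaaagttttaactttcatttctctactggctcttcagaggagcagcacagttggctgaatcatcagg
Rsad2: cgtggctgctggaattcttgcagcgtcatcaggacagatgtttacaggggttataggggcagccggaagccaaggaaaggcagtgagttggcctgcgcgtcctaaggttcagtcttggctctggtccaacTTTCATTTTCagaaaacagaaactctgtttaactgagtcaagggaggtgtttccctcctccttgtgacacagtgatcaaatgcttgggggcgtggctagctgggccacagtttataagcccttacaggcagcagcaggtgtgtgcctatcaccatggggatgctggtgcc
Lgals3bp: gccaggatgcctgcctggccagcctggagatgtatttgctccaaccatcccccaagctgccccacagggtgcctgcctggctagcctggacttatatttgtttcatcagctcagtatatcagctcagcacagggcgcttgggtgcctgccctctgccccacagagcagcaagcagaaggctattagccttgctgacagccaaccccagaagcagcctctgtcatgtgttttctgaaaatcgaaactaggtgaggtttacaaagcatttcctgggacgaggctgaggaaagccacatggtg

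The Ifit1 window (chr19:34640639-34640938, plus strand) holds 2 matches that begin 104 and 85 bases before the start. In the Isg15 window (chr4:156200769-156201068, minus strand) 3 overlapping matches form a single run beginning 78 bases before the start. Trim30d (chr7:104507800-104508099, minus strand) has 1 match at 41 bases and Rsad2 (chr12:26456403-26456702, minus strand) has 1 at 120 bases before the start. No match to these letters lies in the window of Lgals3bp (chr11:118401910-118402209, minus strand). A match is a description of the letters and does not show that the site is bound. The 14 measured genes with a match had a median difference between genotypes of -0.48 (log2, MyD88-ko minus WT) and the 17 without one -0.32. The median excess of WT replicate 1 over WT replicate 2 was 0.62 for the genes with a match and 0.67 for those without.

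No interferon-stimulated gene passed the test between genotypes. With limma and Benjamini-Hochberg adjustment across all genes, 0 of the 42 passed (adjusted p from 0.224 to 0.979), where 0.190% of all genes did. At an unadjusted limma p under 0.05, 4 were lower and 1 higher in MyD88-ko, beside 6.39% and 6.16% of all genes. The signs were unequal all the same: 35 of 42 differences were negative, against 46.9% of all genes, with a median of -0.43 for the set and 0.015 for all genes. MyD88-ko and WT arrays did not overlap for 7 genes that were lower and 1 that was higher, beside backgrounds of 12.9% and 14.8%. As shares of the set these were 16.7%, near the background, and 2.38%, well under it. The plot of differences by role shows that most intervals cross 0.

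**Figure D1:**
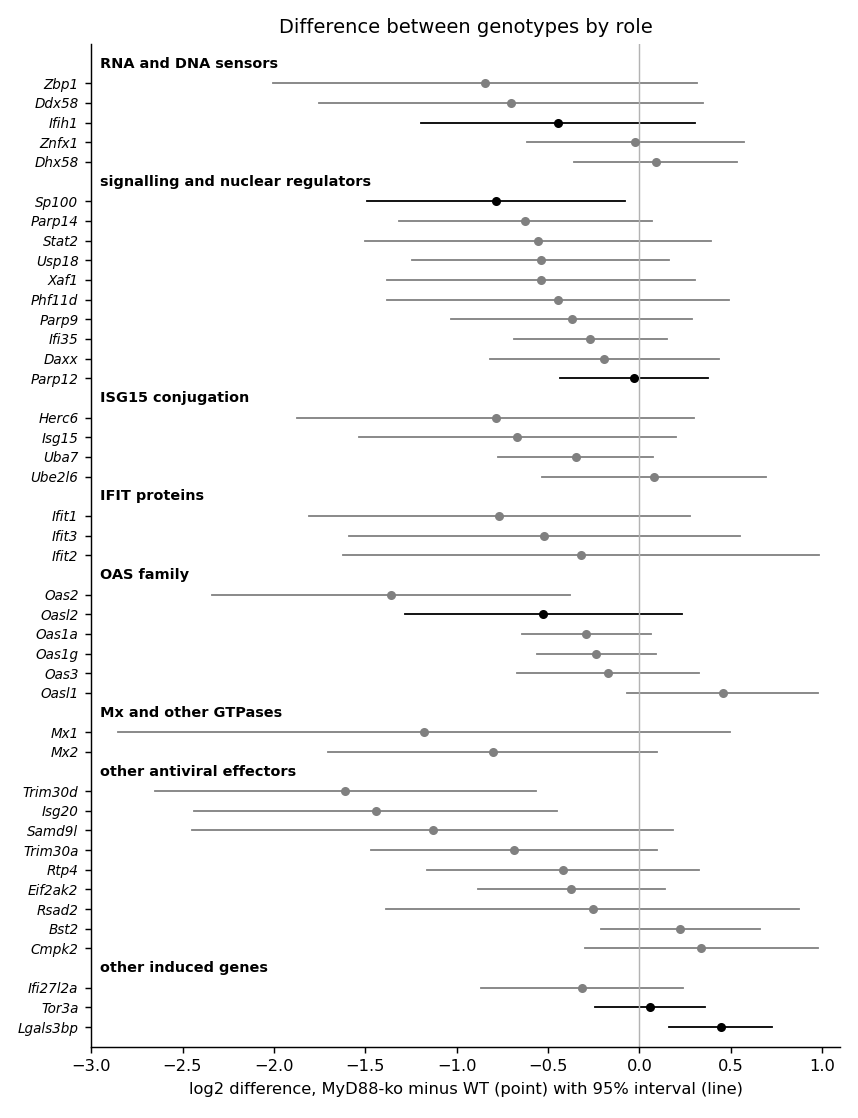
Log2 difference between genotypes (x axis, MyD88-ko minus WT, 3 and 2 arrays) for each of the 42 measured genes, grouped by role, with points for the fitted difference and lines for its 95% interval. Black marks the 6 genes above the background limit on all 5 arrays and grey the others; 35 of the 42 points lie left of 0 and no gene passed after adjustment.

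The arrays of a genotype differed among themselves in a shared order. WT replicate 1 carried the highest level of the 5 arrays for 35 of the 42 genes, against 25% of all genes, and MyD88-ko replicate 2 the lowest for 36, against 18.3%. Both held at once for 32 genes, where the background was 7.04%. The other 3 arrays lay close together whatever their genotype. Set against each gene's mean over the 5 arrays, the median of the 42 genes was 0.61 on WT replicate 1 and -0.54 on MyD88-ko replicate 2. It was 0.07, 0.03 and -0.09 on MyD88-ko replicate 1, MyD88-ko replicate 3 and WT replicate 2. WT replicate 2 was thus a median of 0.13 below MyD88-ko replicate 1 and 0.14 below MyD88-ko replicate 3.

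**Figure D2:**
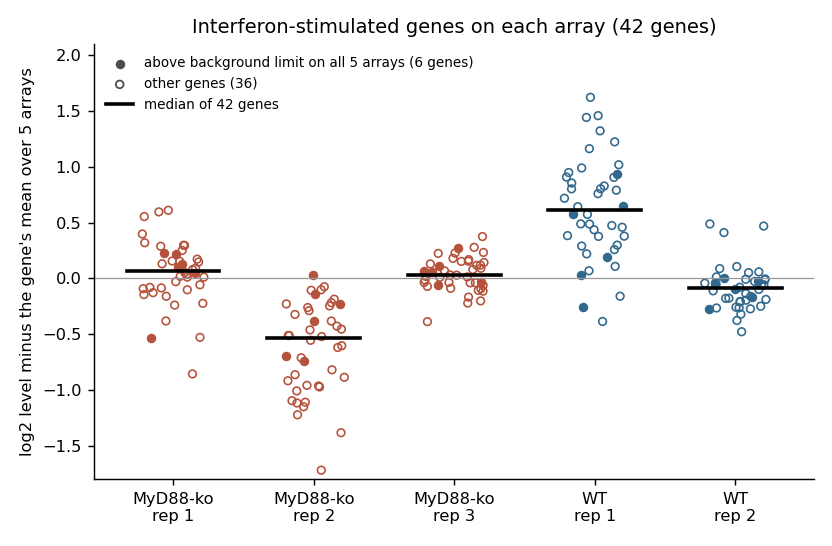
Level of each of the 42 interferon-stimulated genes on each array (y axis, log2, minus that gene's mean over the 5 arrays), with filled points for the 6 genes above the background limit on all arrays, open points for the other 36 and bars for medians. WT replicate 1 has the highest median (0.61) and MyD88-ko replicate 2 the lowest (-0.54), while the remaining arrays of both genotypes sit near 0.

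Between the WT arrays, 41 of 42 genes were higher on replicate 1, by a median of 0.68, while over all genes the median was 0.0021. A difference of at least 1.5-fold in that direction was seen for 25 genes, against 3.66% of all genes and 3.88% of the 2992 genes above the limit on every array. None of the 42 differed by that much the other way. Within MyD88-ko, replicate 2 was the lowest array for 40 of 42 genes (29.5% of all genes), and the median SD over the 3 arrays was 0.38 against 0.13 for all genes. The WT gap was larger than the difference between genotypes for 34 of the 42 genes (81.0%, against 56.4% of all genes). The range over the MyD88-ko arrays was larger than it for 29 (69.0%), a share close to that of all genes (67.8%). With 2 WT arrays the gap between them has no test.

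**Figure D3:**
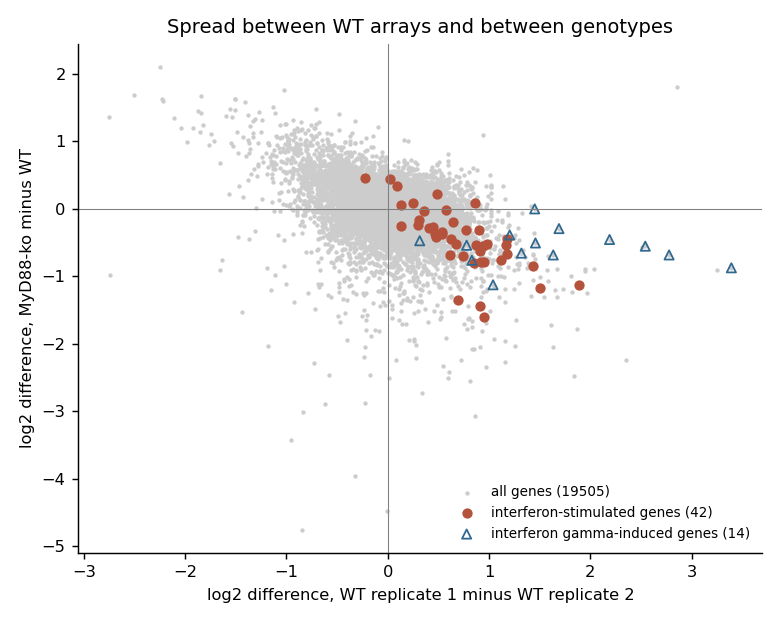
Difference between the WT arrays (x axis, log2, replicate 1 minus replicate 2) against the difference between genotypes (y axis, log2, MyD88-ko minus WT) for all 19505 genes (grey), the 42 interferon-stimulated genes (red) and 14 interferon gamma-induced genes (triangles). Both axes use the WT arrays and so are not independent; 41 of the 42 red points lie right of 0, while no gene of the set passed between genotypes.

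Single arrays set the size of the difference between genotypes. The median of -0.43 was -0.088 without WT replicate 1 and -0.24 without MyD88-ko replicate 2, and it was -0.76 without WT replicate 2. Negative differences numbered 28 of 42 without WT replicate 1 and 39 without WT replicate 2. The 7 genes that were lower without overlap became 35 without WT replicate 2 (83.3%, against 29.7% of all genes in that comparison). They became 15 without MyD88-ko replicate 1 (35.7%, against 17.0%). Without WT replicate 1 the count was 7 (16.7%), under the 23.5% of all genes. It was 7 without MyD88-ko replicate 2 (16.7%, against 18%) and 8 without MyD88-ko replicate 3 (19%, against 18%).

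Among the sensors of foreign nucleic acid, all 5 measured genes were lowest on MyD88-ko replicate 2. Zbp1, which recognises Z-form nucleic acid and can trigger necroptosis, read 5.95, 5.06 and 6.06 on MyD88-ko replicates 1 to 3 and 7.25 and 5.82 on WT replicates 1 and 2. Only WT replicate 1 exceeded the limit, and WT replicate 2 fell among the MyD88-ko arrays (limma, adjusted p = 0.528). Ddx58, which encodes the RNA sensor RIG-I, read 5.31, 4.10 and 5.39 in MyD88-ko and 6.01 and 5.27 in WT, under the limit on every array and with overlapping groups. Ifih1, encoding MDA5, a sensor of long double-stranded RNA, was above the limit throughout at 7.68, 6.76 and 7.40 against 8.03 and 7.41. Its log2 difference was -0.44 with a 95% interval of -1.19 to 0.31 (limma, adjusted p = 0.602). Dhx58, which encodes the related helicase LGP2, lay on the other side of 0, with 7.29, 6.74 and 7.08 against 7.07 and 6.83 (difference 0.09, interval -0.36 to 0.54). The helicase gene Znfx1 averaged 7.21 ± 0.33 (SD, n = 3) in MyD88-ko against 7.23 ± 0.40 (SD, n = 2).

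All 10 signalling and nuclear regulators had negative differences and all 10 were highest on WT replicate 1. Sp100, a component of nuclear bodies, was above the limit on every array at 8.03, 8.17 and 8.52 in MyD88-ko and 9.49 and 8.56 in WT. The groups did not overlap, but WT replicate 2 exceeded MyD88-ko replicate 3 by a small margin. The difference of -0.78 had an interval of -1.49 to -0.08 and did not pass over all genes (limma, adjusted p = 0.347); without WT replicate 1 it was -0.32. Parp14, an ADP-ribosyltransferase, read 5.97, 5.69 and 6.18 against 7.02 and 6.12, so that WT replicate 1 alone stood apart. Usp18, which strips ISG15 from proteins and damps receptor signalling, had the same order of groups at 5.91, 5.34 and 5.79 against 6.65 and 5.78, all under the limit. Parp12, another member of that enzyme family, was nearly level at 7.92, 7.56 and 7.86 against 7.99 and 7.63, with a difference of -0.03 and an interval of -0.43 to 0.37.

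Stat2, the subunit of the interferon-activated complex that brings its transactivation domain, was also in this role. It read 7.17, 6.48 and 7.58 in MyD88-ko and 8.10 and 7.16 in WT (limma, adjusted p = 0.603). MyD88-ko replicate 3 exceeded WT replicate 2, and the groups overlapped. The other 5 regulators, Xaf1, Phf11d, Parp9, Ifi35 and Daxx, had adjusted p between 0.573 and 0.790 (limma), and in each of them WT replicate 2 lay within the range of the MyD88-ko arrays.

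ISG15 is a ubiquitin-like protein that is attached to targets by Uba7, Ube2l6 and Herc6 in turn. Isg15 itself read 4.88, 4.36 and 4.88 in MyD88-ko and 5.96 and 4.79 in WT, under the limit throughout, and WT replicate 1 alone was high. Uba7, the activating enzyme, read 6.41, 6.22 and 6.35 against 6.94 and 6.41, at least 1.03-fold lower, with MyD88-ko replicate 1 and WT replicate 2 level. Only WT replicate 1 exceeded the limit for Uba7, so that fold is not a strict lower bound. Herc6, the main ligase for ISG15 in the mouse, read 5.99, 4.87 and 6.13 against 6.93 and 5.98, again with WT replicate 2 inside the MyD88-ko range. The conjugating enzyme Ube2l6 had the opposite sign. Its values were 7.46, 7.18 and 7.32 against 7.67 and 6.81, and the WT arrays flanked all 3 MyD88-ko arrays. None of the 4 passed (limma, adjusted p from 0.487 to 0.919).

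The IFIT proteins bind viral RNA and block its translation, and their 3 genes shared a pattern. Ifit1 read 5.19, 4.13 and 5.07 in MyD88-ko and 6.12 and 5.003 in WT. Ifit2 read 5.50, 3.75 and 5.07 against 5.54 and 4.64, and Ifit3 read 7.32, 6.04 and 7.01 against 7.80 and 6.82. In all 3 the highest array was WT replicate 1, the lowest MyD88-ko replicate 2, and WT replicate 2 lay below MyD88-ko replicates 1 and 3. Ifit1 and Ifit2 were under the limit on every array. The span over the MyD88-ko arrays was 1.06, 1.75 and 1.28 for Ifit1, Ifit2 and Ifit3, larger than the differences between genotypes, and none passed (limma, adjusted p from 0.525 to 0.832).

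The OAS enzymes make oligoadenylates that switch on RNase L. Oas2 was the measured member of this family with the lowest p, at 6.14, 5.45 and 6.78 in MyD88-ko and 7.83 and 7.14 in WT. Both WT arrays were above the limit and above every MyD88-ko array, a 2.57-fold lower mean in MyD88-ko (difference -1.36, SE 0.40, limma, adjusted p = 0.263). Of the MyD88-ko arrays only replicate 3 exceeded the limit, so the fold rests partly on values under it. Without WT replicate 1 the difference was -1.01. Oasl2, detected on every array, read 7.91, 7.12 and 7.92 against 8.51 and 7.84, with WT replicate 2 below MyD88-ko replicates 1 and 3. Oas1a read 5.74, 5.65 and 5.78 against 6.21 and 5.81, under the limit throughout. Oas1a and Oas1g are close copies of each other, and whether their probe sets cross-detect is unknown.

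Oasl1, which limits translation of Irf7, ran the other way from its family. It read 5.31, 4.68 and 5.29 in MyD88-ko and 4.53 and 4.75 in WT, and was the single gene of the 42 that was lower on WT replicate 1 than on WT replicate 2. All of these values lie under the limit (limma, adjusted p = 0.462).

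Mx proteins are GTPases that trap viral nucleoproteins, and C57BL/6 mice carry a defective Mx1 allele whose transcript is still induced by interferon. Mx1 read 5.86, 3.997 and 5.87 in MyD88-ko and 7.17 and 5.67 in WT. Its span over the MyD88-ko arrays, 1.87, was the widest of the 42 genes, and WT replicate 2 lay below MyD88-ko replicates 1 and 3 (limma, adjusted p = 0.542). Mx2 read 5.44, 4.37 and 5.08 against 6.19 and 5.34, under the limit throughout.

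Among the other antiviral effectors, the lowest p-values belonged to Trim30d, Isg20 and Trim30a, in which the groups did not overlap. Trim30d read 4.40, 3.40 and 4.61 in MyD88-ko and 6.22 and 5.27 in WT, all under the limit (4.14 ± 0.65, SD, n = 3, against 5.74 ± 0.67, SD, n = 2) (limma, adjusted p = 0.230). Isg20, an exonuclease that degrades RNA, read 4.78, 4.63 and 5.77 against 6.96 and 6.05, and was above the limit on WT replicate 1 alone (adjusted p = 0.248). Trim30a, which restrains NF-κB activation by Toll-like receptors, read 6.50, 5.62 and 6.50 against 7.20 and 6.58, at least 1.20-fold lower (limma, adjusted p = 0.458). It too exceeded the limit on WT replicate 1 alone, so that fold is not a strict lower bound. Trim30a and Trim30d belong to 1 cluster of related genes on chromosome 7, and whether their probe sets share signal is unknown.

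Rsad2 and Cmpk2, which encode viperin and a nucleotide kinase that supplies it, are neighbours on chromosome 12. Rsad2 read 8.12, 6.47 and 7.80 in MyD88-ko and 7.79 and 7.65 in WT. Cmpk2 read 7.12, 6.18 and 6.63 against 6.35 and 6.26. In both genes MyD88-ko replicate 1 was the highest array and the WT arrays were close, 0.13 and 0.09 apart. The spans over the MyD88-ko arrays were 1.65 and 0.93. MyD88-ko replicate 1 was also the highest array for Oasl1, Dhx58 and Bst2, and the WT arrays were as close for Tor3a, 0.13 apart. Neither passed (limma, adjusted p = 0.847 and 0.636), and these were pointed out as a pair after their values were seen.

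The remaining effectors were mixed. Bst2, encoding tetherin, which holds budding virions on the cell surface, was slightly higher in MyD88-ko at 7.11, 6.79 and 6.95 against 6.97 and 6.48, with overlapping groups. Samd9l had the widest gap between the WT arrays, 7.57 against 5.68, while its MyD88-ko arrays read 5.86, 5.06 and 5.56. Eif2ak2, encoding the kinase PKR that shuts down translation, averaged 6.91 ± 0.27 (SD, n = 3) in MyD88-ko against 7.28 ± 0.33 (SD, n = 2). Rtp4 was under the limit on all arrays. Adjusted p for these 4 genes lay between 0.467 and 0.646 (limma).

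Of the 42 genes, Lgals3bp had the lowest p, and it was higher in MyD88-ko. This gene encodes a secreted galectin-binding glycoprotein and read 8.43, 8.23 and 8.47 in MyD88-ko and 7.94 and 7.92 in WT. All 3 MyD88-ko arrays exceeded both WT arrays, at 8.38 ± 0.13 (SD, n = 3) against 7.93 ± 0.012 (SD, n = 2). This was a 1.36-fold difference (0.44, SE 0.12, interval 0.16 to 0.73) that did not pass over all genes (limma, adjusted p = 0.224). It ranged from 0.40 to 0.52 when each array was left out in turn. Lgals3bp also had the smallest gap between the WT arrays, 0.018, whereas the gaps of the other 5 genes detected on every array were 0.92 for Sp100, 0.68 for Oasl2, 0.62 for Ifih1, 0.36 for Parp12 and 0.13 for Tor3a. Tor3a, a torsin ATPase of the endoplasmic reticulum, read 7.42, 7.18 and 7.43 against 7.35 and 7.22, with overlapping groups. Ifi27l2a read 5.97, 6.11 and 6.17 against 6.78 and 6.01, under the limit throughout and high on WT replicate 1 alone.

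Upstream of these genes, 29 of 31 listed pathway genes were measured, and 0 passed over all genes (limma, adjusted p from 0.111 to 0.963), with 20 of 29 differences negative (46.9% of all genes) and a median of -0.14. At an unadjusted limma p under 0.05, 4 of 29 were lower and 2 higher, beside 6.39% and 6.16% of all genes. The type I interferons themselves, Ifnb1 and 5 Ifna-cluster genes, never exceeded the limit, and the median of their differences was -0.018. Ifnb1 read 3.75, 3.64 and 3.78 in MyD88-ko and 3.90 and 3.87 in WT. Both receptor chains were detected everywhere and were lower in MyD88-ko without overlap: Ifnar1 read 7.27, 7.39 and 7.53 against 7.80 and 7.70. Ifnar2 read 8.46, 8.54 and 8.48 against 9.09 and 8.79 (differences -0.35 and -0.45, limma, adjusted p = 0.304 and 0.240). Both chains were lowest on MyD88-ko replicate 1, not on replicate 2.

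Irf7, which is both induced by interferon and needed for its amplification, followed the array pattern of the set at 7.35, 6.28 and 7.87 in MyD88-ko and 7.92 and 6.79 in WT. Irf1 read 7.87, 7.11 and 7.91 against 8.95 and 7.63, high on WT replicate 1 and low on MyD88-ko replicate 2. Irf9 read 6.12, 5.71 and 6.17 against 6.58 and 6.27, under the limit. None of the 3 passed (limma, adjusted p from 0.414 to 0.907). The lowest p-values in the pathway list were those of Socs3, a feedback inhibitor of cytokine receptors, and Mavs, the adaptor of RIG-I and MDA5. Socs3 read 7.05, 6.67 and 6.88 against 7.83 and 7.70, 1.86-fold lower (limma, adjusted p = 0.111). Mavs read 7.72, 7.49 and 7.56 against 6.98 and 7.16, 1.43-fold higher (adjusted p = 0.194). Neither overlapped between groups.

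Genes driven mainly by interferon gamma, the product of T cells and NK cells, showed the same ordering of arrays with wider gaps. All 14 measured genes were higher on WT replicate 1 than on WT replicate 2 (50.2% of all genes), by a median of 1.45. MyD88-ko replicate 2 was the lowest array for 11 of them (18.3% of all genes). Gbp2, a guanylate-binding protein, read 7.71, 6.11 and 7.62 in MyD88-ko and 8.97 and 6.43 in WT. The chemokine gene Cxcl9 read 7.48, 5.56 and 6.84 against 9.20 and 5.80, and Gbp4 read 6.84, 5.59 and 7.20 against 8.62 and 5.84. In these genes WT replicate 2 lay below MyD88-ko replicates 1 and 3. All 14 differences between genotypes were negative (46.9% of all genes), with a median of -0.55. For 12 of the 14 the WT gap was larger than the difference between genotypes (56.4% of all genes). None passed (limma, adjusted p from 0.291 to 0.999). At an unadjusted limma p under 0.05, 2 were lower, beside 6.39% of all genes.

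The lowest p-values on the interferon gamma list were those of Ciita, Fcgr1 and H2-Ab1. Ciita, the master regulator of MHC class II genes, read 4.90, 5.23 and 5.75 in MyD88-ko and 6.94 and 5.90 in WT, above the limit on WT replicate 1 alone. Fcgr1, a high-affinity Fc receptor, read 9.08, 8.72 and 8.92 against 9.54 and 9.23 without overlap, 1.39-fold lower. H2-Ab1, an MHC class II chain, read 9.46, 9.78 and 10.46 against 11.08 and 10.25. For H2-Ab1 and Ciita the lowest array was MyD88-ko replicate 1, so these class II genes did not share the dip on replicate 2.

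Markers of other cells also differed between genotypes and between arrays, and their part in the interferon pattern was not tested. All 7 measured neutrophil markers and all 6 classical monocyte markers had lower means in MyD88-ko, against 46.9% of all genes. Of them 5 and 1 passed, beside 0.190% of all genes (limma, adjusted p from 0.0037 to 0.138 and from 0.0349 to 0.206). Their summed linear level was 292 to 415 in MyD88-ko and 2396 to 3422 in WT for neutrophils. For monocytes it was 954 to 1697 against 3330 to 5093. Of the neutrophil markers only Csf3r exceeded the limit on any MyD88-ko array, so the others add signal under the limit to these sums. The monocyte markers Chil3 and Hp were also under the limit on every MyD88-ko array, and Hp was the 1 that passed. Fewer cells of a type and less RNA per cell cannot be told apart in such bulk samples. WT replicate 1 minus WT replicate 2 had a median of -0.73 over the neutrophil markers, opposite in sign to the interferon-stimulated genes, and of 0.44 over the monocyte markers. All 6 melanoma markers were higher on WT replicate 1 than on WT replicate 2 and lowest of the MyD88-ko arrays on replicate 2, with summed levels of 3523 to 4916 in MyD88-ko and 3391 to 4900 in WT.

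Of the 7 conventional dendritic cell markers 6 had lower means in MyD88-ko (46.9% of all genes), with summed levels of 362 to 648 against 668 to 928. None passed (limma, adjusted p from 0.208), where 0.190% of all genes did. At an unadjusted limma p under 0.05, 3 were lower, beside 6.39% of all genes. The defining Zbtb46, Flt3, Xcr1 and Clec9a were under the limit on all arrays. NK cell markers, all under the limit, were highest on WT replicate 1 in 4 of 4 and lowest on MyD88-ko replicate 2 in 3 of 4. Klrk1 had the widest gap of them, at 3.17, 3.02 and 3.42 in MyD88-ko and 4.69 and 3.70 in WT. WT replicate 1 was the highest array for 0 of 3 T cell markers and 2 of 3 B cell markers.

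Plasmacytoid dendritic cells, the strongest producers of type I interferon, left little trace in these cells, sorted for CD11b and against B220. The sorted cells do not show whether they were present before the sort. Of 7 measured markers 6 never exceeded the limit, including the defining Siglech, and Tcf4 was the exception (summed levels 701 to 776 and 671 to 687). Macrophage markers gave summed levels of 12470 to 13040 in MyD88-ko and of 10510 to 12070 in WT, the lowest being WT replicate 1. Of the Y-linked genes, 3 of 4 were measured and all 3 had lower means in MyD88-ko (summed levels 109 to 222 against 282 to 348). Their levels were lowest on MyD88-ko replicate 3, not on replicate 2.

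**Figure D4:**
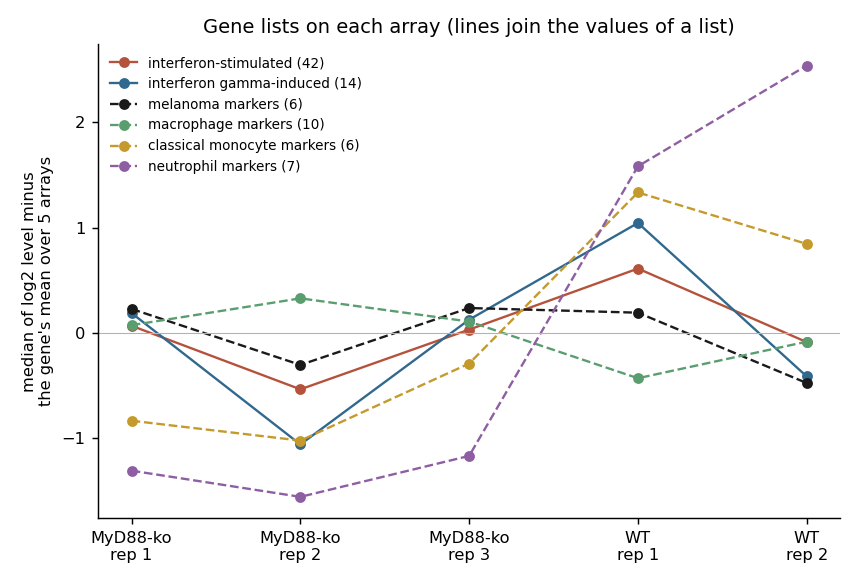
Median level of each gene list on each array (y axis, log2, minus each gene's mean over the 5 arrays), with solid lines for the interferon lists and dashed lines for cell type markers. Both interferon lists peak on WT replicate 1 and dip on MyD88-ko replicate 2, whereas neutrophil and monocyte markers are low on all 3 MyD88-ko arrays and high on both WT arrays.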

How the data were processed

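Labelled cDNA was prepared from 100 ng of total RNA per sample, per the labels' protocols. The submitters' processing notes name RMA and Affymetrix Expression Console 1.1 for the log2 values the authors deposited; RMA subtracts background, equalises the arrays' distributions and summarises probes. The values ran from 1.55 to 12.66. No genome build for the probe sets was found in the sources used here.

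Of 28846 deposited rows, 19572 probe sets carried 1 gene symbol; 9274 rows had none, and all 19572 gene identifiers were in the RefSeq table. For 55 genes with several probe sets the brightest on average was kept, leaving 19505. The model (limma 3.58.1, R 4.3.3) had genotype as its single term, 3 residual degrees of freedom and no filter. P-values were adjusted by Benjamini-Hochberg over all genes, and a gene passed under 0.05. The fit was tested on simulated data. The background limit used 5222 negative controls. Arrays have no read depth; their number limits precision.

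Members and lists were chosen with earlier results of these data known. Values on every array are given for up to 3 genes of lowest p in each role, the genes above the limit throughout and those of positive sign; Stat2, Samd9l, Rsad2 and Gbp2, Gbp4 and Cxcl9 were added after their values were seen. No ranking of other genes by likeness over the arrays was made, because 5 arrays are too few. Promoters come from RefSeq. Alternatives covered normalization, filters, probe set averaging, moderation, array weights, a replicate block and each array left out.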

Additional observations from a re-analysis of the deposited data

How the results depend on the processing

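The interferon-stimulated genes' median of -0.43 was negative under every alternative run, but shrank to -0.088 without WT replicate 1. No shift exceeded 0.40, the pooled SD over arrays of the set's median level. That SD is nearly as large as the median itself and holds the spread of the same arrays, so it cannot show a stable size. The median lay between -0.42 and -0.49 with quantile normalization again, equal medians, cyclic loess, either level filter, averaged probe sets, other moderation, array weights or the block. It lay between -0.76 and -0.088 with each array left out. With an array left out, the number of genes lower without overlap ran from 7 to 35 (16.7% to 83.3%, beside 17.0% to 29.7% of all genes). The sign of a single gene's difference never turned under the normalization, filter and model alternatives, and turned in at least 1 run with an array left out for 13 genes, which ranged as follows: Bst2 (-0.019 to 0.47), Daxx (-0.51 to 0.13), Dhx58 (-0.036 to 0.24), Ifi27l2a (-0.70 to 0.069), Ifit2 (-0.77 to 0.19), Oas3 (-0.33 to 0.0082), Parp12 (-0.21 to 0.15), Phf11d (-1.03 to 0.14), Rsad2 (-0.58 to 0.24), Tor3a (-0.0044 to 0.14), Ube2l6 (-0.35 to 0.51), Xaf1 (-1.12 to 0.048) and Znfx1 (-0.31 to 0.26). The 37 genes passing over all genes became 15 with array weights, 56 with quantile normalization again, 60 with equal medians and 65 with cyclic loess. With a MyD88-ko array left out 0 to 1 passed. In those runs 0 interferon-stimulated genes passed. At an unadjusted limma p under 0.05 there were 3 to 6 of the 42, beside 1691 to 2601 of all 19505 genes. With the replicate number as a block, 70 genes passed, 3 of them in the set (Trim30d, Oas2 and Mx1, limma, adjusted p = 0.0234, 0.0290 and 0.0496). At an unadjusted limma p under 0.05 this run had 23 of the 42, beside 2508 of all 19505 genes. The block terms leave fewer residual degrees of freedom than the 3 of the main fit, so its error is poorly known. The replicate numbers are shared by 2 arrays of each genotype, and nothing in the labels says that they pair samples. Deviations from the group means correlated at 0.059 for the arrays numbered 1 and 0.105 for those numbered 2 (Pearson r across 19505 genes). MyD88-ko replicate 3 and WT replicate 1, which differ in number, gave 0.054. With 2 WT arrays their deviations are equal and opposite, so these values cannot show whether samples are paired. MyD88-ko replicate 3 has no partner and adds nothing to the blocked difference. With a WT array left out, the spread came from the MyD88-ko arrays alone and was taken to hold for the single WT array too, so no p-values are given for those runs. The background limit touches 36 of the 42 genes on at least 1 array.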

Other observations

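The genes named here lie outside the set and were picked, after their values were seen, from those with wide gaps between the WT arrays. Among genes above the background limit on at least 1 array of each genotype, the 15 with the largest excess on WT replicate 1 included Mndal, Ifi213 and Ifi209 of the interferon-inducible p200 family, with log2 gaps of 1.96, 1.73 and 1.61. They also included Phf11b (1.67), a paralogue of Phf11d, the very large interferon-induced GTPase Gvin1 (1.82), Ms4a4c (1.87) and Aif1 (1.81). Besides the interferon gamma list, the widest gap on that side was that of Dnase1l1, a DNase family gene (2.86), whose WT replicate 2 value was 4.21. Ms4a4c read 7.41, 6.73 and 7.74 in MyD88-ko and 10.01 and 8.14 in WT, and did not pass between genotypes (limma, adjusted p = 0.285).

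Other genes ran the opposite way. Lower on WT replicate 1 than on WT replicate 2 were Retnla (-2.75), the platelet chemokine gene Ppbp (-2.74), Pdgfc (-2.51), the osteoclast and macrophage proton pump subunit Atp6v0d2 (-2.25), the fatty acid transporter gene Slc27a1 (-2.23), Vcam1 (-1.98), Fcrls (-1.88), Pmp22 (-1.84) and the hyaluronan receptor Lyve1 (-1.74). Fcrls read 9.19, 10.12 and 9.65 in MyD88-ko and 7.27 and 9.15 in WT. For Fcrls, Pmp22, Atp6v0d2, Slc27a1 and Pdgfc, MyD88-ko replicate 2 was the highest array. Ppbp, Vcam1 and Lyve1 were instead lower on MyD88-ko replicate 2 than on the other MyD88-ko arrays, and Retnla was highest on MyD88-ko replicate 3.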
